A study of Mus musculus with 16 samples.

Results

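Goblet cells are the mucus-secreting cells of the intestinal epithelium, and their secretory program was followed through 10 genes, Muc2, Fcgbp, Clca1, Zg16, Tff3, Retnlb, Spink4, Agr2, Spdef and Muc13, of the 52525 genes that all 3 deposited count tables list. The genes were taken by their symbols as known goblet cell genes, with earlier results of these data known. RNA-seq was made from small intestine of C57BL/6 mice in which Cul4b, the scaffold of a cullin-RING ubiquitin ligase, was deleted. Crypts, the epithelial pockets that hold the intestinal stem cells, were isolated with EDTA and gave 4 libraries of wild type (WT) and 4 of the genotype pVillin-Cre; Cul4bfn/Y (KO-IEC). The study gives the WT control of the KO-IEC mice as Cul4bfn/Y, so KO-IEC differs from it by pVillin-Cre. Organoids, epithelial cultures grown from crypts in Matrigel, came as 2 WT and 2 KO-IEC libraries and, in a separate experiment, as 2 WT libraries and 2 libraries of the inducible genotype CAG-CreERT2; Cul4bfn/Y (KO-CAG), sequenced after treatment with tamoxifen, the agent that activates CreERT2. The question of each comparison was how KO differed from the WT of its own experiment.

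The pVillin promoter drives Cre throughout the intestinal epithelium, so a KO-IEC goblet cell and its neighbours lost Cul4b alike. The CAG promoter drives CreERT2 broadly across cell types, and tamoxifen activates the CreERT2 protein. The replicates are biological according to the study's methods, but the labels name no animals, so p-values measure the spread between these libraries. The labels give no age, and the study's methods give 8 to 16 weeks for most experiments. Whether the WT organoids of the inducible experiment carried CreERT2 or received tamoxifen is not given in the sources used here. Total counts per library ran from 7348191 to 16881395, so 3 counts, taken as the lowest level that could be read, were 0.178 to 0.408 CPM (a count scaled to the size of its library). That floor covers counting error only. The deleted gene was low in every KO library, at 0.848 to 5.19 CPM against 31.7 to 83.2 CPM in the WT libraries. Epithelial markers (Epcam, Vil1, Cdh1 and 4 others) summed to between 6493 and 11592 CPM in the 16 libraries, whereas 8 immune markers summed to at most 88.8 CPM. Mitochondrial ribosomal RNA split the crypt libraries: it was 18.6 to 27.6 CPM in WT replicate 1 and KO replicates 1 to 3, and 833 to 2740 CPM in the other 4.

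Goblet cells arise from secretory progenitors under Atoh1, and Spdef, an ETS transcription factor, promotes their maturation. Their granules hold the gel-forming mucin Muc2, whose folding in the endoplasmic reticulum needs the disulfide isomerase Agr2, and which is secreted together with Fcgbp, Clca1 and Zg16. Tff3 is a trefoil peptide of epithelial repair, Retnlb a resistin-like peptide with antibacterial action, and Spink4 a Kazal-type protease inhibitor abundant in goblet cells. Muc13 is a membrane mucin, and it is made by other epithelial cells as well as goblet cells. In bulk RNA, fewer goblet cells and less RNA per goblet cell cannot be told apart.

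The promoter sequence of 5 of the 10 genes (Muc2, Fcgbp, Agr2, Spdef and Muc13) was found in RefSeq on build GRCm38.p6. Muc2, Fcgbp and Spdef are shown as the 250 bases before the transcription start on the gene's own strand, because Muc2 and Fcgbp are the pair of large gel proteins that rose together in the KO-CAG organoids, and Spdef is the transcription factor whose level did not pass the test there. Capitals mark the E-box CAGCTG, a sequence of the kind bHLH factors such as Atoh1 bind, the TATA sequence TATAAA, and TTTATG, a sequence of the kind the intestinal factor Cdx2 binds.
Muc2, chr7:141690090-141690339, plus strand: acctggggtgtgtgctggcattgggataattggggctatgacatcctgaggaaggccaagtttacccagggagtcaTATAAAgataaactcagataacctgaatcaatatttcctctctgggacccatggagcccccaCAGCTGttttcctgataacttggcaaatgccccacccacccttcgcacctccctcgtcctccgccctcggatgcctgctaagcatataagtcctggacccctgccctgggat
Fcgbp, chr7:28070986-28071235, plus strand: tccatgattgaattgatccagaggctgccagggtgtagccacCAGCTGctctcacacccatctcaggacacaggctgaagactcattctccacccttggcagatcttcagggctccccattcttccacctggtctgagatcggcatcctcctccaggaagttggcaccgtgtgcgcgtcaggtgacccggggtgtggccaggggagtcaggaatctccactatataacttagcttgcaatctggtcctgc
Spdef, chr17:27728952-27729201, minus strand: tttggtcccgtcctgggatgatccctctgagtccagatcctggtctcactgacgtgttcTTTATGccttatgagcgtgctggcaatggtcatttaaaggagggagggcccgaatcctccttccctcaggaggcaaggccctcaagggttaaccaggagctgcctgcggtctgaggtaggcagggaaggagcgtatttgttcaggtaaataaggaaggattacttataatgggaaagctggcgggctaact

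CAGCTG began 112 bases before the start of Muc2 and 208 bases before that of Fcgbp, and it stood in 13% of the 32851 RefSeq windows of this length. It was absent from the windows of Agr2 and Muc13, which also rose in the KO-CAG organoids, and from that of Spdef. TATAAA was found before Muc2 (174 bases before the start) and in 12.4% of all windows. Only exact matches were marked, so the related sequences tatataa before Fcgbp and atataag before Muc2, nearer the start, stay in lower case. TTTATG, searched on both strands and found in 10.8% of all windows, was present before Spdef, Agr2 and one of the 2 starts of Muc13. These matches are descriptions of sequence, not binding sites.

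Before the genotypes were compared, the genes were ordered by their level per length in WT (RPKM, which is CPM divided by gene length in kilobases). In WT crypts Tff3 stood highest at 1837 ± 211 RPKM (SD, n = 4), above Spink4 at 1174 ± 205 RPKM in all libraries. Spink4, Zg16, Muc13, Fcgbp and Agr2 followed in this order of means, each overlapping the next over the libraries, and Clca1 came below them at 153 ± 30.0 RPKM. Spdef, a regulator rather than a product, was at 13.9 ± 1.84 RPKM, and Retnlb (4.48 ± 1.85 RPKM) and Muc2 (2.89 ± 2.27 RPKM) overlapped at the bottom. The WT organoids of both experiments also had Tff3 and then Spink4 on top. Zg16, Clca1 and Muc2 held different places: Muc2 was at 2.58 ± 0.65 RPKM in WT organoids of the KO-IEC experiment and at 47.4 ± 2.59 RPKM in those of the KO-CAG experiment (SD, n = 2 each). The experiments were prepared separately, so this last pair of values is set side by side and not compared. The KO-IEC organoid counts list 54532 genes, against 52636 in each of the other experiments. The positions of Spdef and Retnlb are not the same in all 3, so their levels per length may rest on other gene models.

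**Figure D1:**
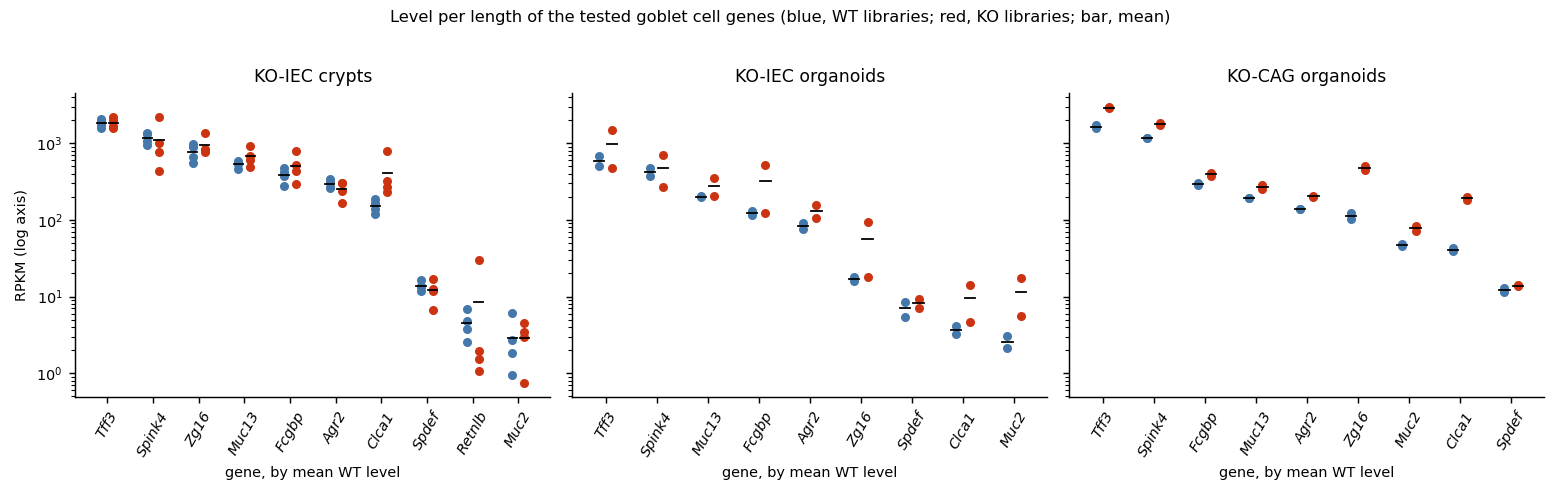
Level per length (RPKM, log axis) of the goblet cell genes that could be tested, ordered by mean WT level within each experiment; points are libraries (blue WT, red KO) and bars are group means. Tff3 and Spink4 lead in all 3 experiments, while Muc2 lies lowest in the crypts and in the WT organoids of the KO-IEC experiment.

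The low place of Muc2 has to be read beside its gene model. The tables place the gene (ENSMUSG00000025515) on chromosome 7 at 141690340 to 141754693, positions that are the same in GENCODE M21 on GRCm38. None of its 8 transcript models there spans the gene, the longest holds 2926 bases, and 40000 bases in the middle (141704612 to 141744611) carry no model. Reads from such a stretch could not be counted, and the 7127 bases used as its length cover only the annotated ends. Differences between libraries are within 1 gene model and do not rest on that length. Zg16 overlaps Gm44939 and Gm22747, and Muc13 overlaps Gm15657, whose reads cannot be told apart from theirs without strand information. Clca1 belongs to a cluster of related genes (Clca2, Clca3b, Clca4a and others), so reads shared with a paralog are uncertain.

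In the KO-IEC crypts no member of the program changed at an adjusted p under 0.05 (edgeR's quasi-likelihood test), and Clca1 came nearest, 2.65-fold higher. The 10 genes were all tested, 7 with a positive and 3 with a negative log2 fold change, and their median was 0.15 against -0.01 over all 13427 tested genes, of which 6.96% were called. At an unadjusted p under 0.05 the test passed 1 of the 10, Clca1, where 31.9% of all tested genes passed, and DESeq2 also called Clca1 alone (adjusted p = 0.033). In simulated crypt counts the test found 52.5% of 2-fold changes and 97.9% of 4-fold changes, averaged over random genes. A 2-fold shift of a single gene could therefore be missed here.

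The gel proteins differed from each other. Muc2 was at 12.9, 43.6, 19.2 and 6.75 CPM in WT replicates 1 to 4 and at 21.0, 32.3, 24.3 and 5.33 CPM in KO replicates 1 to 4. Its lowest library was KO and its highest WT, the groups overlapped fully, and the log2 fold change was 0.01 (SE 0.60, adjusted p = 0.989). Its highest library was 6.46 times its lowest within WT and 6.06 times within KO, whereas no other member passed 2.71 times within WT. Within KO it was exceeded by Retnlb (27.9 times), and Spink4 reached 5.04 times. Clca1, a secreted metalloprotease of the mucus layer, was at 716, 454, 528 and 619.9 CPM in WT and at 880.1, 1010, 1217 and 3036 CPM in KO. All 4 KO libraries lay above all 4 WT libraries, which held for 1 of the 10 members and for 8.7% of tested genes in this direction. The exact two-sided permutation p follows from that separation and adds nothing to it. It was 0.0286, the smallest that 4 against 4 can give. The log2 fold change was 1.41 (SE 0.38) and the adjusted p of edgeR 0.0533. KO replicate 4 set much of its size: without that library the log2 fold change was 0.85 (SE 0.19, adjusted p = 0.0479), and it was 1.60 (adjusted p = 0.0265) without KO replicate 1.

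Mitochondrial ribosomal RNA moved with the genotype in the crypts, as described above, and the Clca1 difference was therefore also taken within libraries of like level. Among those under 100 CPM, KO replicates 1 to 3 exceeded WT replicate 1 by 0.52 in mean log2 CPM. Among those between 100 and 2000 CPM, KO replicate 4 exceeded WT replicate 4 by 2.29. With these levels as a term in the fit, the log2 fold change was 1.18 (SE 0.37, adjusted p = 0.211), and 2 genes in all were then called. Its part in the result was otherwise not tested. Markers of other cell types moved with the genotype too. The 10 enterocyte markers summed to 2747 to 10725 CPM in WT and 9272 to 20306 CPM in KO crypts, none of them called and the median of their log2 fold changes 1.51. The 6 stem cell markers summed to 1557 to 2411 CPM in WT and 1011 to 1567 CPM in KO. Of these markers 2 were called lower, beside 357 of all 13427 tested genes. Their part in the Clca1 difference was not tested. Together the 10 genes took 0.814% to 1.07% of the counts of the WT crypt libraries and 0.976% to 1.41% of those of the KO libraries.

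Fcgbp, the IgG Fc binding protein that is part of the gel, and Zg16, a lectin that binds bacteria, followed another library. Fcgbp was at 4969, 4457, 2870 and 3978 CPM in WT and at 4524, 5430, 8306 and 3059 CPM in KO (log2 fold change 0.39, SE 0.30, adjusted p = 0.385). Zg16 was at 1217, 823, 686 and 1138 CPM in WT and at 962, 1057, 1691 and 995 CPM in KO (0.28, SE 0.24, adjusted p = 0.434). Both genes, and Muc13 with 2773 CPM, were highest in KO replicate 3, and their groups overlapped. That library was the lowest of the 8 in 4 others: Spink4 (208 CPM), Agr2 (212 CPM), Spdef (14.7 CPM) and Retnlb (0.742 CPM). Over the 8 libraries Fcgbp accordingly ran against Agr2 and Spdef, with Pearson's r of -0.93 for each pair, whereas Agr2, Spdef and Spink4 ran together (r from 0.86 to 0.92). These correlations share libraries and depth and are descriptions. KO replicate 3 also had the lowest sum of 10 Paneth cell markers (3738 CPM, against 10437 to 26567 in the other 7) and the highest sum of 10 enterocyte markers (20306 CPM, against 2747 to 19900). The part of these cell types in the goblet cell values was not tested.

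The peptides gave no difference between the genotypes that passed the test. Tff3 was the steadiest member, at 1015, 790.4, 849 and 967 CPM in WT and at 824, 775, 979 and 1081 CPM in KO, with a log2 fold change of 0.01 (SE 0.15, adjusted p = 0.953). Spink4 was at 512, 447, 654 and 628 CPM in WT and at 481, 363, 208 and 1049 CPM in KO, so the KO group reached both below and above the WT range (-0.09, SE 0.41, adjusted p = 0.895). Retnlb had few counts, 22 to 60 per WT library, and stood at 2.60, 3.30, 4.80 and 1.77 CPM in WT against 1.06, 1.37, 0.742 and 20.7 CPM in KO. KO replicates 1 to 3 were below every WT library and KO replicate 4 was above them all, by 19.5 times the mean of the other KO libraries. Its log2 fold change was 0.94 (SE 0.96, adjusted p = 0.522) and turned to -1.52 (adjusted p = 0.0622) without KO replicate 4.

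KO replicate 4 therefore stood high in Clca1, Retnlb and Spink4 while it was the lowest of all 8 libraries in Muc2. The same library had the highest sum of tuft cell markers, 194 CPM for 6 genes against 30.5 to 49.1 CPM in the other 7, and of 7 colon epithelium markers, 357 CPM against 135 to 206 CPM. Whether these have a part in its goblet cell values was not tested.

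Agr2, the chaperone of mucin folding, and Spdef were at slightly lower means in KO without passing the test. Agr2 was at 342, 338, 447 and 403 CPM in WT and at 393, 310.0, 212 and 391 CPM in KO (log2 fold change -0.23, SE 0.20, adjusted p = 0.443). Spdef was at 29.5, 26.1, 35.8 and 29.7 CPM in WT and at 26.2, 27.8, 14.7 and 37.1 CPM in KO (-0.19, SE 0.24, adjusted p = 0.596). For both the groups overlapped, and KO replicate 3 alone was far below the WT range. Muc13 was at 1649, 1386, 1667 and 1777 CPM in WT and at 1496, 2054, 2773 and 1855 CPM in KO (0.34, SE 0.19, adjusted p = 0.253), with 3 of 4 KO libraries above the WT range.

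**Figure D2:**
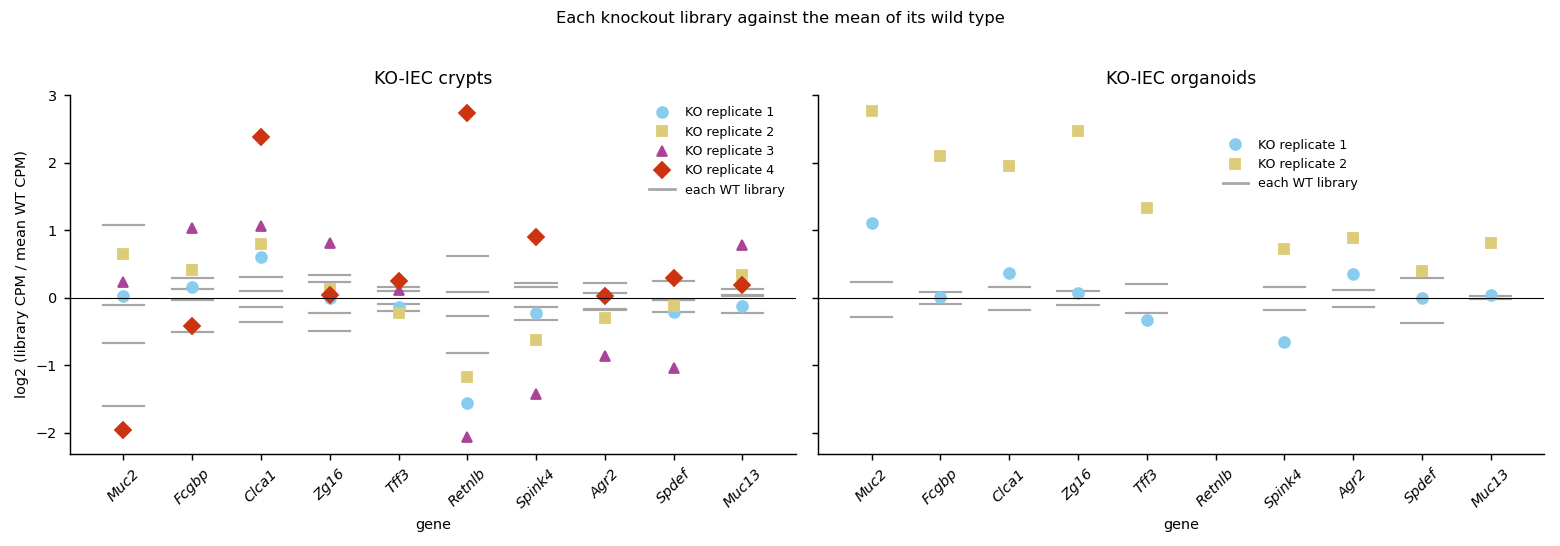
Each KO-IEC library as log2 of its CPM over the mean CPM of its WT group, for crypts (left) and organoids (right); symbols are KO replicates and grey bars are the single WT libraries. In the crypts replicate 4 stands out for Clca1 and Retnlb and replicate 3 for Fcgbp and Zg16 above and Spink4, Agr2 and Spdef below, while in the organoids replicate 2 lies above replicate 1 for all 9 genes; Retnlb had no counts there.

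In the KO-IEC organoids all 9 members with enough counts had higher means in KO, but none passed the test. Their median log2 fold change was 0.73, against -0.01 over 13938 tested genes. A single gene of the whole table was called, Cul4b itself (0.00717%), and 650 genes (4.66%) had an unadjusted p under 0.05, among them Muc2 and Agr2. DESeq2 called 1 member, Muc2 (adjusted p = 0.013). In simulated counts of this experiment the test found 6% of 2-fold and 60.6% of 4-fold changes, averaged over random genes. With 2 libraries a side it could thus show little. Both KO libraries lay above both WT libraries for 4 of the 9 members (Muc2, Clca1, Agr2 and Muc13), where 19.4% of all tested genes did so.

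The higher means came mostly from KO replicate 2. Fcgbp was at 1202 and 1361 CPM in WT, at 1295 CPM in KO replicate 1 and at 5469 CPM in KO replicate 2 (log2 fold change 1.40, SE 0.67, adjusted p = 0.856). Zg16 was at 22.7 and 19.8 CPM in WT and at 22.4 and 118 CPM in KO (1.72, SE 0.77). For both, KO replicate 1 lay inside the WT range. Tff3 was at 249 and 336 CPM in WT and at 232 and 737 CPM in KO (0.73, SE 0.56). Spink4 was at 177 and 224 CPM in WT and at 127 and 331 CPM in KO (0.19, SE 0.47). In these peptides the KO replicates fell on opposite sides of the WT libraries, and without KO replicate 2 the log2 fold changes were -0.33 and -0.65.

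Muc2 differed from those 4 in that both KO libraries lay above both WT libraries. It was at 15.1 and 21.7 CPM in WT and at 39.9 and 125 CPM in KO, a log2 fold change of 2.16 (SE 0.58, adjusted p = 0.856) that stayed at 1.12 without KO replicate 2. Clca1 was at 15.4 and 12.3 CPM in WT and at 17.8 and 53.6 CPM in KO (1.36, SE 0.55). Agr2 was at 99.2 and 118 CPM in WT and at 138 and 201 CPM in KO (0.64, SE 0.24). For Muc2, Clca1 and Agr2 alike, the gap between the nearest WT and KO libraries was small beside the distance between the KO libraries. Muc13 was at 597 and 616 CPM in WT and at 621 and 1068 CPM in KO (0.48, SE 0.29), and Spdef at 12.6 and 19.8 CPM in WT and at 16.1 and 21.4 CPM in KO (0.21, SE 0.32). Retnlb had 0 counts in all 4 libraries, which allows a level of up to 0.178 to 0.200 CPM.

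Together the 10 genes took 0.246% and 0.274% of the counts of the WT organoid libraries, 0.262% in KO replicate 1 and 0.749% in KO replicate 2. KO replicate 2 also had the lowest sum of 6 stem cell markers, 370.2 CPM against 1520 in KO replicate 1 and 2501 and 3681 in WT, and the highest sums of enteroendocrine markers (925 CPM, against 272 to 473) and enterocyte markers (26341 CPM, against 6446 to 21148). Their part was not tested. With KO replicate 1 left out, 8 of the 9 members were called higher, and 2322 genes of the whole table, whereas with KO replicate 2 left out no member was. Each of these fits had a single KO library, which is assumed to vary like the 2 WT libraries that gave the spread, so their calls describe that library.

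In the KO-CAG organoids the program rose almost as a whole. Of the 9 members with enough counts 8 were called higher in KO, where 18.1% of 13598 tested genes were called higher and 13.4% lower. Clca1 and Zg16 rose most, 4.65- and 4.22-fold, and the other 6 rose 1.34- to 1.77-fold. The median log2 fold change was 0.60, against 0.00 over all tested genes. All 9 had both KO libraries above both WT libraries, as did 35.5% of all tested genes. Spdef was the member that did not pass the test. When all 16 libraries shared one estimate of the spread, Clca1 alone stayed called, the biological coefficient of variation being 0.0815 in these libraries by themselves and 0.231 and 0.280 in the crypts and the KO-IEC organoids. The replicates lay close together here, and simulated counts gave a recovery of 80.8% for 2-fold changes, averaged over random genes.

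Clca1 was at 148 and 161 CPM in WT and at 757 and 683 CPM in KO (log2 fold change 2.22, SE 0.099, adjusted p = 1.93e-06 by edgeR). Zg16 was at 129 and 156 CPM in WT and at 642 and 561 CPM in KO (2.08, SE 0.12, adjusted p = 4.22e-06). For both, the distance between the groups was several times the distance between replicates, and these were the only members past a 2-fold threshold, which 8.6% of tested genes passed. The large gel proteins rose less. Muc2 was at 351 and 324 CPM in WT and at 599 and 506 CPM in KO (0.71, SE 0.10, adjusted p = 0.000746), and Fcgbp at 3154 and 2998 CPM in WT and at 4305 and 3955 CPM in KO (0.42, SE 0.094, adjusted p = 0.00684). Fcgbp lost its call when WT replicate 2 was left out (adjusted p = 0.0801).

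Among the peptides, Tff3 was at 850.3 and 779.8 CPM in WT and at 1474 and 1405 CPM in KO (log2 fold change 0.82, SE 0.094, adjusted p = 0.000181). Spink4 was at 564 and 557 CPM in WT and at 835 and 865 CPM in KO (0.60, SE 0.087, adjusted p = 0.000695). Both rose with no overlap, and the replicates of each group lay close together beside the distance between the groups. Agr2 was at 181 CPM in both WT libraries and at 259 and 268 CPM in KO (0.54, SE 0.080, adjusted p = 0.000782). Muc13 was at 594 and 585 CPM in WT and at 868 and 768 CPM in KO (0.47, SE 0.095, adjusted p = 0.00426).

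Spdef was at 28.5 and 25.4 CPM in WT and at 30.9 and 30.1 CPM in KO (log2 fold change 0.17, SE 0.12, adjusted p = 0.310). The KO libraries were the higher ones, and the difference was larger than its SE without passing the test. Retnlb had 0 and 0 counts in WT and 1 and 2 in KO, under the 3-count floor in every library, so no fold is given. The 10 genes took 0.601% and 0.585% of all counts in WT and 0.957% and 0.899% in KO.

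**Figure D3:**
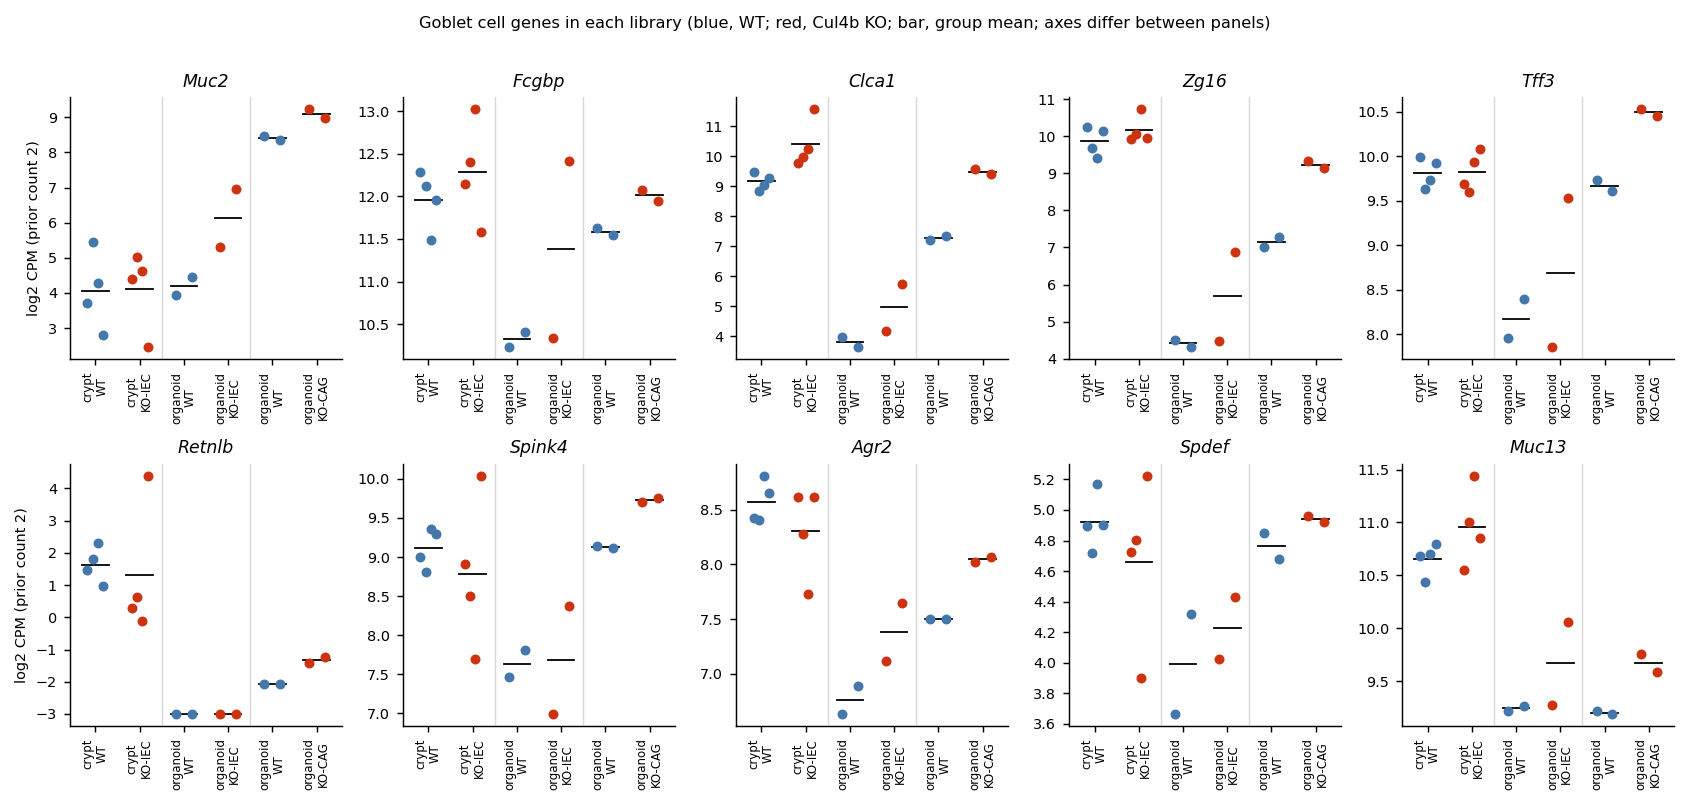
Level of each goblet cell gene in every library as log2 CPM with a prior count of 2, 1 panel a gene with its own axis; points are libraries (blue WT, red KO), bars are group means and grey lines part the 3 experiments. Both KO-CAG points lie above both WT points in the 9 panels with a tested gene, while the KO-IEC organoid points are far apart and most crypt groups overlap; for Retnlb the organoid points are libraries with 0 to 2 counts, placed by the prior count.

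Markers of the neighbouring cell types moved in the KO-CAG organoids too. Of 10 Paneth cell markers 9 were called higher, of 10 enterocyte markers 8 and of 8 enteroendocrine markers all 8, with medians of 0.91, 1.22 and 1.12, while 2 of 6 stem cell markers were called lower. Beside these counts, 18.1% of all tested genes were called higher and 13.4% lower. The summed Paneth cell level was 6261 and 5800 CPM in WT and 10505 and 9876 CPM in KO. Enterocyte markers summed to 7451 and 7804 CPM in WT and to 16205 and 13193 CPM in KO. The goblet cell genes were therefore 1 of 4 groups of differentiation markers that stood higher in these KO libraries. Of 4 tuft cell markers tested 1 was called higher (median 0.18), and their sums overlapped. The general epithelial markers stood higher as well, at 6796 and 6493 CPM in WT and 9980 and 8873 CPM in KO. Of these 7 markers 4 were called higher and 1 lower (median 0.43). The part of these other markers in the goblet cell rise was not tested. Mitochondrial ribosomal RNA was also higher, at 919 and 1010 CPM in WT and 1210 and 1313 CPM in KO-CAG, with both of its genes called. Its part in the rise was not tested.

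**Figure D4:**
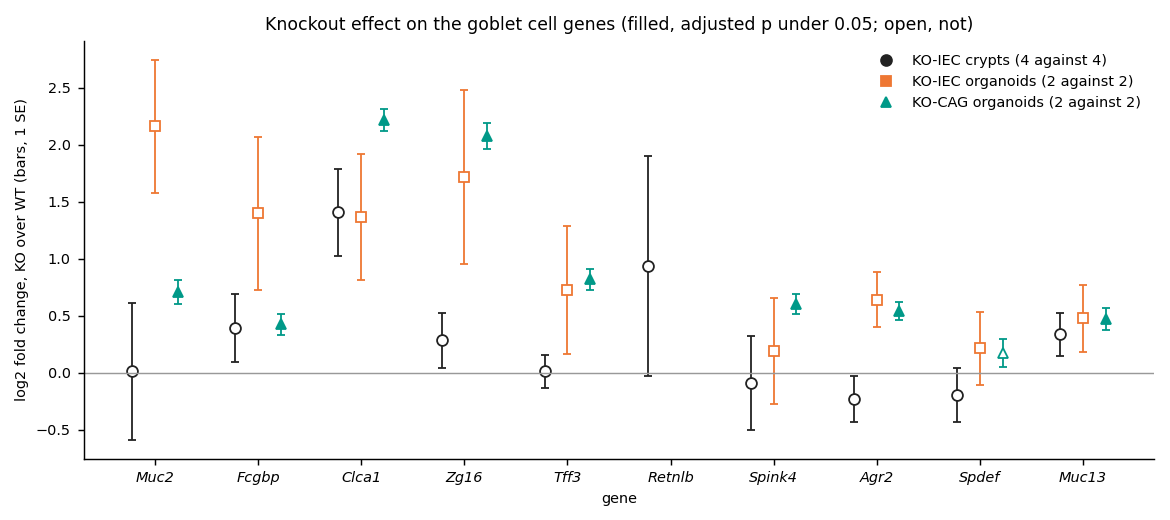
Log2 fold change of KO over WT for each goblet cell gene in the 3 experiments, with bars of 1 SE; filled symbols have an adjusted p under 0.05. The 8 filled symbols are all KO-CAG organoids, whose bars are short, and the KO-IEC organoid estimates carry the widest bars for most genes.

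Whether the effect of the deletion differed between experiments was tested as the difference of the log2 fold changes in a single fit of all 16 libraries over 15585 genes. No member was called in any of the 3 contrasts, in which 0.372% (KO-CAG organoids against crypts), 0.00642% (KO-IEC organoids against crypts) and 0.385% (KO-CAG against KO-IEC organoids) of all genes were. All 9 members tested had a more positive change in the KO-CAG organoids than in the crypts. Their median difference was 0.68, against 0.003 over all 15585 genes. The difference was 1.78 for Zg16 (SE 0.65, adjusted p = 0.228) and 0.76 for Agr2 (SE 0.32, adjusted p = 0.293). These 2 had an unadjusted p under 0.05, as did 14.4% of all genes in that contrast. Between KO-IEC organoids and crypts the difference was 2.16 for Muc2 (SE 0.95, adjusted p = 0.694), 1.46 for Zg16 (SE 0.65, adjusted p = 0.699) and 0.89 for Agr2 (SE 0.32, adjusted p = 0.639), the members with an unadjusted p under 0.05, as had 6.96% of all genes. The calls of 8 members in one experiment and none in another thus do not show that the experiments differ.

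Other genes of the program were read from lists of transcription factors, further goblet cell products, enzymes of mucin glycosylation and other mucins. Of 8 transcription factors 2 rose in the KO-CAG organoids, near the share of 18.1% of all tested genes called higher there. None passed in the other experiments. Klf4, which is needed for goblet cell maturation, was at 34.7 and 33.3 CPM in WT and at 53.2 and 49.8 CPM in KO-CAG (log2 fold change 0.60, SE 0.10, adjusted p = 0.00191). Foxa3 was at 38.7 and 40.9 CPM in WT and at 47.8 and 49.8 CPM in KO-CAG (0.30, SE 0.10, adjusted p = 0.0476). Foxa3 lost its call when any 1 of the 4 libraries was left out (adjusted p from 0.0532 to 0.324) and by DESeq2 (adjusted p = 0.288), and Atoh1, Gfi1, Foxa1, Xbp1, Creb3l1 and Creb3l4 did not pass. In the crypts Klf4 averaged 79.6 ± 22.7 CPM over the WT libraries and 139 ± 49.3 CPM over the KO libraries (SD, n = 4 each, adjusted p = 0.088), and Xbp1, a factor of the unfolded protein response, at 185 ± 15.7 and 189 ± 22.6 CPM. Foxa3 in the KO-IEC organoids was at 38.8 and 39.8 CPM in WT and 27.7 and 27.1 CPM in KO (-0.52, adjusted p = 0.856), the opposite side from the KO-CAG organoids, and Xbp1 there was at 270 and 225 CPM in WT and 258 and 318 CPM in KO.

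Of 12 further products tested in the KO-CAG organoids 6 rose and 1, Tpsg1, fell, and the median was 0.48. Beside this, 18.1% of all tested genes were called higher there and 13.4% lower. Scin, an actin-severing protein, was at 133 and 145 CPM in WT and at 503 and 355 CPM in KO (log2 fold change 1.63, adjusted p = 4.79e-05). Fer1l6 rose by 1.54, Guca2a, which encodes guanylin, by 1.36 and Bcas1 by 0.96 on the log2 scale. In the crypts none of 12 passed: Scin averaged 64.7 ± 22.8 CPM over the WT libraries and 167 ± 87.8 CPM over the KO libraries (adjusted p = 0.0523), highest in KO replicate 4 with 292 CPM, and Guca2a was at 163 ± 32.0 and 164 ± 89.4 CPM. In the KO-IEC organoids none of 12 passed, and Guca2a was at 53.2 and 64.6 CPM in WT and 68.1 and 86.0 CPM in KO while Scin overlapped (146 and 198 against 140 and 225 CPM).

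In the crypts the glycosylation list held calls, whereas the members and the lists of transcription factors, products and other mucins held none. Which cell types made the RNA of the listed genes cannot be told from bulk RNA. Of 17 enzymes and transporters tested there 2 rose, Gcnt4, a branching enzyme of mucin O-glycans, and Slc26a2, a sulfate transporter. Gcnt4 was at 59.1, 65.3, 52.3 and 69.0 CPM in WT and at 84.0, 124, 104 and 90.8 CPM in KO (log2 fold change 0.71, SE 0.14, adjusted p = 0.0397). Slc26a2 was at 114, 127, 109 and 133 CPM in WT and at 174, 214, 140 and 190 CPM in KO (0.57, SE 0.14, adjusted p = 0.0460). For both all KO libraries lay above all WT libraries, and a share of 2 in 17 stands beside 4.3% of all genes called higher. Both calls were lost with the mitochondrial RNA level as a term (adjusted p = 0.211 for each). They were lost also without KO replicate 2 or 3 or without WT replicate 1, 2 or 3, and for Slc26a2 without KO replicate 4, at adjusted p from 0.0649 to 0.134. Slc26a2 was lost in addition when counts were scaled by library size alone (adjusted p = 0.0632). The enterocyte and stem cell markers that moved with genotype in these crypts stand beside both genes as well, and their part was not tested. In the KO-CAG organoids 9 of 15 rose and 1, Galnt7, fell, beside 18.1% of all tested genes called higher and 13.4% lower. Slc26a2 was among those that rose, from 133 and 132 CPM in WT to 327 and 240 CPM in KO (1.09, adjusted p = 0.00023), whereas Gcnt4 did not pass. Fut2, which adds terminal fucose, rose by 1.57, Gal3st2 by 1.45 and Chst4 by 0.98 on the log2 scale, the latter pair being sulfotransferases of glycans. None of 16 passed in the KO-IEC organoids, where St3gal4 was at 427 and 252 CPM in WT and 544 and 775 CPM in KO, and B3gnt3 at 130.1 and 144 CPM in WT and 158 and 169 CPM in KO.

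Of the 5 other mucins tested in the KO-CAG organoids Muc3 rose while Muc4 and Muc20 fell. Of all tested genes 18.1% were called higher there and 13.4% lower. Muc3, a membrane mucin of the brush border, was at 44.3 and 49.1 CPM in WT and at 142 and 130.5 CPM in KO (log2 fold change 1.55, SE 0.093, adjusted p = 5.94e-06). Muc4 was at 130.2 and 119.7 CPM in WT and at 40.7 and 44.7 CPM in KO (-1.54, SE 0.093, adjusted p = 5.94e-06), so that membrane mucins moved in opposite directions. With all 16 libraries in one fit, Bcas1 and Slc26a2 alone of the 13 KO-CAG genes named from these lists stayed called (adjusted p = 0.0411 and 0.0259). The other 11 then had adjusted p from 0.0522 for Muc3 to 0.479 for Klf4, with Scin at 0.0792, Guca2a at 0.129 and Fer1l6 at 0.180. Muc20 was near the floor, at 1.57 and 3.24 CPM in WT and 0.556 and 0.769 CPM in KO (-1.79, SE 0.52, adjusted p = 0.0246), and its call was lost without WT replicate 2 (adjusted p = 0.326) or KO replicate 1 (adjusted p = 0.0686) and by DESeq2 (adjusted p = 0.155). None of 5 passed in the crypts, where Muc3 averaged 465 ± 86.1 CPM over the WT libraries and 696 ± 137 CPM over the KO libraries (adjusted p = 0.0715) and Muc3a at 51.4 ± 7.07 and 43.7 ± 5.88 CPM. None passed in the KO-IEC organoids, where Muc3 was at 67.7 and 79.6 CPM in WT and 78.9 and 248 CPM in KO, and Muc3a at 6.51 and 6.90 CPM in WT and 6.57 and 19.4 CPM in KO. Muc3 and Muc3a are related genes, and their shares of reads are uncertain.

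**Figure D5:**
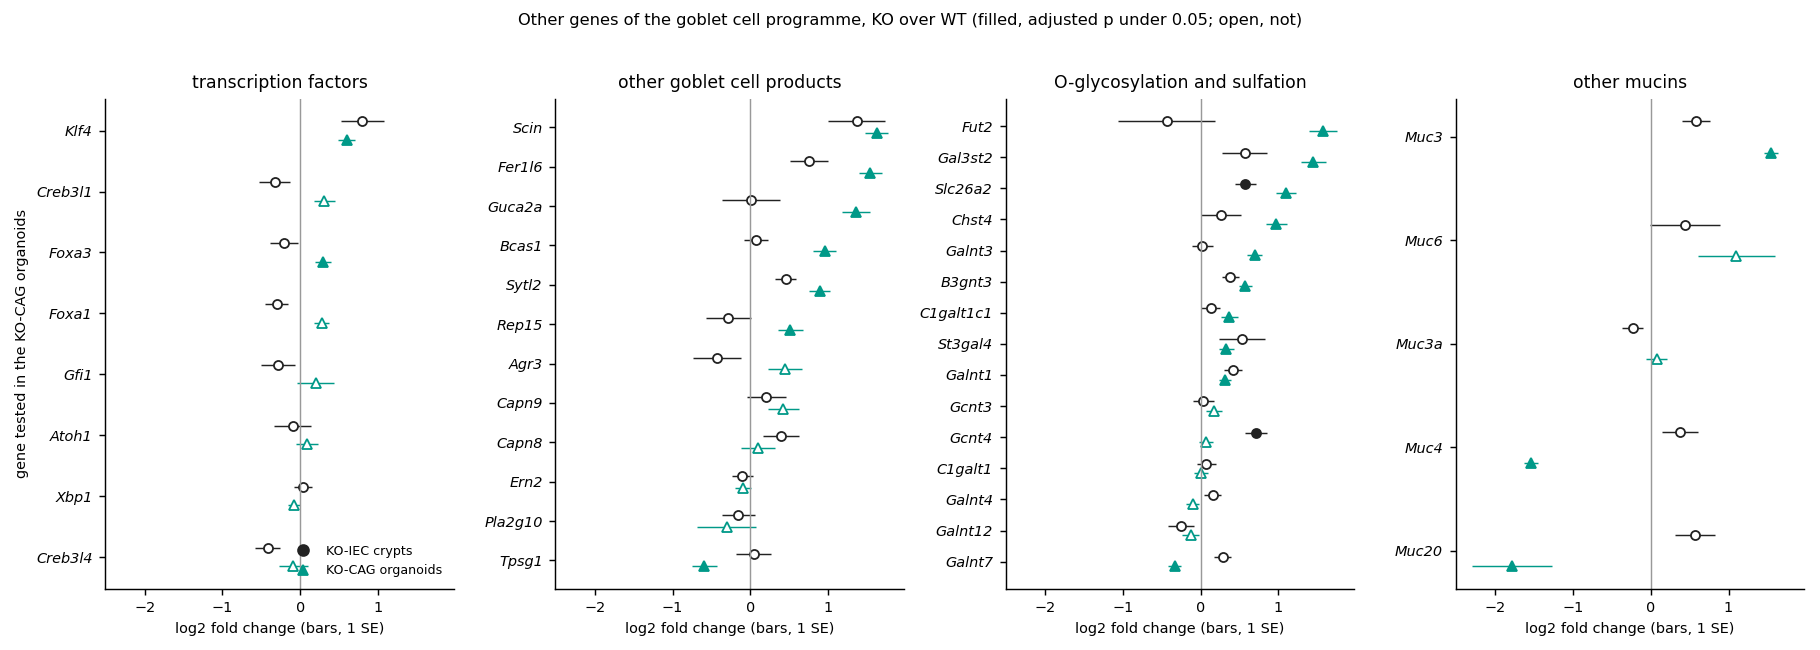
Log2 fold change of KO over WT, with bars of 1 SE, for the listed transcription factors, goblet cell products, glycosylation genes and other mucins that were tested in the KO-CAG organoids (triangles) and the same genes in the KO-IEC crypts (circles); filled symbols have an adjusted p under 0.05. Most filled triangles lie right of 0, Muc4, Muc20, Tpsg1 and Galnt7 lie left, and the only filled circles are Gcnt4 and Slc26a2.

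Across the 8 crypt libraries Muc2 ran against most other members. Its Pearson's r of log2 CPM was -0.82 with Tff3, -0.69 with Spink4 and -0.13 with Zg16, and the single positive one was 0.47 with Fcgbp. The 5 genes most like Muc2 among 9327 with a mean of at least 10 CPM were Poldip3, Ppm1k, Ywhag, Atg16l1 and Tmem260, with r from 0.95 to 0.96 over 8 libraries and from 0.76 to 0.85 without the 2 libraries farthest from the Muc2 median. They were picked for that likeness out of many genes, and the libraries share their depth and their way of preparation, so these values are a description.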

How the data were processed

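RNA-seq libraries of 3 experiments (16 in all) were used as deposited: the authors' tables hold raw counts of reads per gene, without normalization. Per the labels' processing notes, HISAT2 2.0.5 and featureCounts 1.5.0-p3 were named. The genome build and the strand setting are not given in the sources used here. Of the genes of the crypt table that GENCODE M21 (GRCm38) lists, 95.2% had the same coordinates there. All sample columns of the tables were used, and no library was left out.

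KO was compared with WT in a separate fit for every experiment, with no replicate block. The edgeR package (4.0.16, under R 4.3.3) was used with filterByExpr, TMM factors and its quasi-likelihood test. The p-values were adjusted by Benjamini-Hochberg across the tested genes, and a gene was called at an adjusted p under 0.05. CPM values are TMM-scaled, and log2 CPM carries a prior count of 2. RPKM uses the gene lengths of the tables. The scripts were tested on simulated counts, in which a small random part of the genes was changed. The shares found are averages over those genes, not values for the members. Differences between experiments were contrasts in 1 fit of all libraries. The genes were matched by identifier, and the positions of Spdef and Retnlb are not the same in all 3 experiments.

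The members, the gene lists and the mitochondrial RNA class were chosen with earlier results of these data known. Named were all members and, from each list, up to 4 called genes with the largest change, or the 2 tested genes highest per length where fewer than 2 passed. Alternatives were DESeq2's size factors, library size alone, leaving out the filter, requiring each library to hold at least 10 counts, the DESeq2 1.42.0 test, a 2-fold threshold, a replicate block, all libraries in one fit, the mitochondrial RNA class (bounds at 100 and 2000 CPM), and leaving out each library.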

Additional observations from a re-analysis of the deposited data

Results flagged for a closer look

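In 36 groups of 4 crypt libraries examined for a library far from the others, 3 held one, where chance gives about 1 in 20 groups. Clca1 stood at 3036 CPM in KO replicate 4, with the other 3 KO libraries at 880.1 to 1217 CPM. Retnlb stood at 20.7 CPM in the same library, with the others at 0.742 to 1.37 CPM. Zg16 stood at 1691 CPM in KO replicate 3, with the others at 962 to 1057 CPM. The groups of 2 organoid libraries are too small for this check.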

How the results depend on the processing

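In the crypts 0 members were called higher, but 1, Clca1, was with no low-count filter, by DESeq2 and with all 16 libraries in one fit, and 0 to 1 were when a library was left out. In the KO-IEC organoids the count of 0 became 4 with no filter, 1 by DESeq2 and 0 to 8 without a library. In the KO-CAG organoids the 8 calls became 1 with all 16 libraries in one fit, 2 with a 2-fold threshold and 7 to 8 without a library. For the differences between experiments, leaving out the filter gave 2 calls (KO-CAG organoids against crypts), 4 (KO-IEC organoids against crypts) and 1 (KO-CAG against KO-IEC organoids, lower), and leaving out a library gave 0 to 1, 0 to 2 and 0. Without a library, an organoid group of 1 is assumed to vary like the others. The cause of these changes was not tested. No member was called lower within an experiment under any setting. Small log2 fold changes in the crypts turned sign: with library size alone Muc2 (-0.083), Tff3 (-0.071), Xbp1 (-0.055) and Guca2a (-0.061), with no filter Muc2 (-0.00057), Tff3 (-0.0039) and Guca2a (-0.0018), and with the mitochondrial RNA class Zg16 (-0.064), Tff3 (-0.083), Xbp1 (-0.0077) and Guca2a (-0.11). Over the crypt libraries left out in turn, Muc2 ran from -0.29 to 0.68, Tff3 from -0.066 to 0.088, Retnlb from -1.52 to 1.33, Spink4 from -0.67 to 0.19, Spdef from -0.39 to 0.017, Xbp1 from -0.036 to 0.087 and Guca2a from -0.37 to 0.29. In the KO-IEC organoids Tff3 ran from -0.33 to 1.33, Spink4 from -0.65 to 0.72, Spdef from -0.079 to 0.57, Scin from -0.30 to 0.38, Muc3a from -0.028 to 1.53, and the Zg16 difference from the crypts from -0.195 to 2.21. In the labels same-numbered WT and KO libraries share only a number, and whether they were prepared together is not given in the sources used here. Their deviations correlated at -0.40 to 0.43 in the crypts, 0.34 in the KO-IEC and 0.067 in the KO-CAG organoids. Mitochondrial ribosomal RNA of the KO-IEC organoids went by replicate number rather than genotype. It was 1379 (WT) and 1189 CPM (KO) for replicate 1, against 2167 (WT) and 2674 CPM (KO) for replicate 2. The cause of that split was not tested. A replicate block left 0, 0 and 8 members called in the 3 experiments, turned Retnlb to -0.365 and Guca2a to -0.14 in the crypts, and ended the calls of Gcnt4 and Slc26a2 there (adjusted p = 0.0891 for each). Over the whole table the 934 calls in the crypts became 4 with the block, 2 with the mitochondrial RNA class, 1479 with no filter, 1659 with all 16 libraries, 2282 by DESeq2 and 2 to 2468 without a library. The 1 call in the KO-IEC organoids became 223 with no filter, 18 with all 16 libraries, 26 by DESeq2 and 0 to 2322 without a library. The 4278 in the KO-CAG organoids became 477 with all 16 libraries, 2539 by DESeq2 and 2789 to 5177 without a library. Retnlb had 0 to 2 counts in the organoid libraries, too few to test.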
